A study of Mus musculus with 52 samples.

Results

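The genes described here are 8 members of the EGFR (ERBB) family of growth factor receptors and their ligands, out of 47729 gene identifiers in the tables. The receptors are Egfr, Erbb2 and Erbb3, and the ligands are Areg, Ereg, Hbegf, Tgfa and Btc. They were chosen by name, with 1 measured value in view: Egfr was already known from these data to be higher in young mice given anti-PD-L1 than in young mice given isotype, so the values of that comparison are given as a description, with no test. All 8 had 1 row each in the tables and all 8 passed the filter on low counts.

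RNA was measured in 52 mammary tumours of Balb/C mice. Every mouse carried 4T1 cells, a mouse mammary carcinoma line, of which 100000 had been injected into the mammary fat pad. The hosts were young (8 to 10 weeks in the sample labels, while the protocol's range reaches 12 weeks) or old (over 12 months), and all were given 200 µg of an antibody into the peritoneum 3 times (days 7, 10 and 13). The antibody was the isotype control LTF-2, anti-PD-L1 clone 10F.9G2 or anti-CTLA4 clone 9D9. Tumours of young and old hosts numbered 7 and 7 after isotype, 10 and 8 after anti-PD-L1, and 12 and 8 after anti-CTLA4. RNA came from tumours of up to about 150 mm3. Since 1 transplanted line was used throughout, the carcinoma cells of all tumours share 1 genotype and the hosts differ in age and treatment. The labels name biological replicates and not animals, so where tumours are not from separate mice the p-values measure only the spread between these samples.

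ERBB receptors are membrane tyrosine kinases that work in pairs. Ligands such as amphiregulin (Areg), heparin-binding EGF-like growth factor (Hbegf), transforming growth factor alpha (Tgfa), betacellulin (Btc) and epiregulin (Ereg) are made as membrane precursors, are released by ADAM proteases and bind EGFR; some of them also bind ERBB4. ERBB2 binds no ligand of its own and is the preferred partner of the others, and ERBB3, which binds neuregulins, has little kinase activity and signals through its partner to PI3K. In the mammary gland amphiregulin drives ductal growth, and amplified ERBB2 drives a class of human breast cancer.

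The libraries held 9549847 to 53778370 counts (median 20665733.5) and came from 3 numbered sequencing batches that were not spread evenly over the groups. All 7 young isotype libraries and 9 of 10 young anti-PD-L1 libraries were in batch 2, all 8 old anti-PD-L1 libraries were in batch 1, and only young anti-CTLA4 was present in all 3 batches. Old and young isotype libraries shared no batch, nor did old and young anti-PD-L1 libraries, so those age comparisons rely on batch terms that the remaining groups supply. In 4 libraries (young isotype replicates 1 and 6, young anti-CTLA4 replicate 8, old isotype replicate 3) the TMM factor, which scales a library for its make-up, was under 0.8. All 10 carcinoma epithelium markers, the keratin genes Krt8 and Krt18 among them, were detected in each group; Krt8 had a median of 494 TPM (transcripts as a share of the library, with gene length allowed for) over the 52 libraries and Epcam 88.7 TPM. In these bulk samples fewer cells of a type and less RNA per cell cannot be told apart.

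Ligand transcripts were far more abundant than receptor transcripts, and 3 ligands and 1 receptor made up most of the family's RNA. Hbegf ranged from 9.52 to 85.7 TPM (median 32.3) over the 52 libraries, Areg from 8.33 to 48.8 TPM (median 30.7), and Tgfa from 1.64 to 43.4 TPM (median 15.2). Erbb2 followed, with 1.08 to 16.4 TPM (median 6.28), below Tgfa, Areg and Hbegf in each of the 52 libraries. The other 4 genes were lower still: Egfr ranged from 0.220 to 6.00 TPM (median 1.13), Erbb3 from 0.0796 to 3.96 TPM (median 0.884), Btc from 0.186 to 8.29 TPM (median 0.822), and Ereg from 0.0143 to 0.878 TPM (median 0.183). Each of Egfr, Erbb3 and Btc was below Erbb2 in all 52 libraries, and Ereg was below Erbb3 in 51 of 52.

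**Figure D1:**
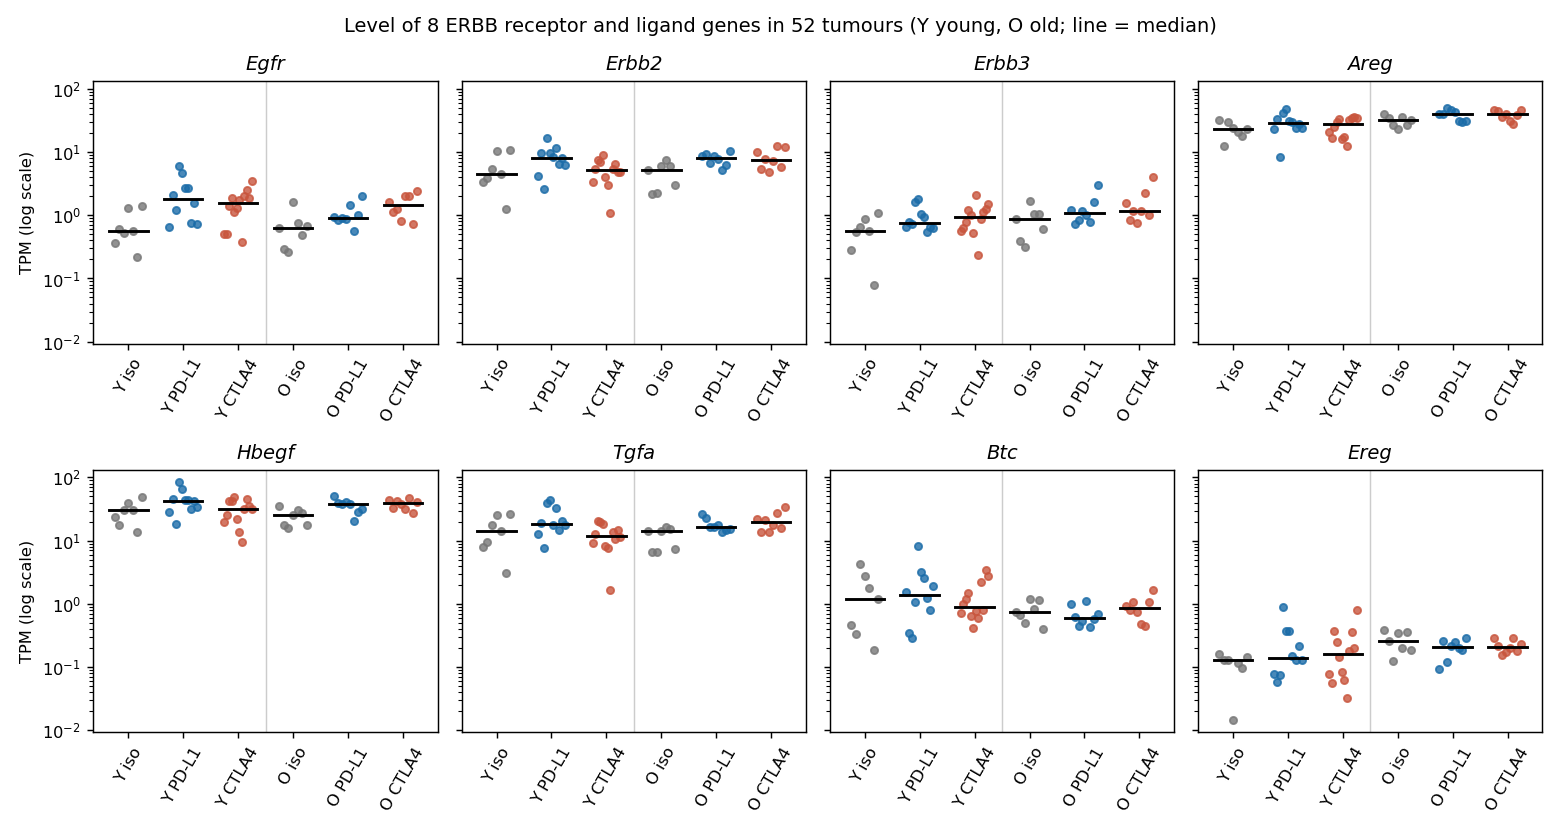
Level of the 8 genes in each of the 52 tumours, in TPM on a log scale, by age and antibody (points are libraries, lines are group medians). Areg (8.33 to 48.8 TPM) and Hbegf (9.52 to 85.7 TPM) lie at the top in every group, and Ereg stays at or under 0.878 TPM.

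As shares of the summed TPM of the 7 EGFR-binding ligands (the 5 named above with Egf and Epgn), Hbegf held a median of 39.1% (29.5% to 52.2%), Areg 37.7% (23.4% to 57.1%) and Tgfa 19.6% (6.76% to 30.1%). Btc held 1.05% and Ereg 0.230%. Among the 4 receptors Erbb2 held a median of 76.0% of the summed TPM (44.0% to 85.6%), Egfr 12.4% and Erbb3 11.3%. Erbb4, the remaining receptor, was listed at 0 in 27 of 52 libraries and reached at most 0.0201 TPM. Of the remaining ligands, Egf itself had a median of 0.184 TPM, Epgn 0.192, Nrg1 1.45, Nrg2 0.424 and Nrg4 0.931, and Nrg3 was listed at 0 in 35 of 52 libraries. A TPM is a share of a library's RNA, and therefore levels of different genes are compared in TPM and levels of 1 gene between tumours in TMM-normalized CPM (counts scaled to library size).

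The order of the genes by median TPM was nearly the same in the 6 groups. Tgfa and then Erbb2 followed the leading pair and Ereg came last in each group, and the leading places were held by Hbegf and then Areg in the 3 young groups and by Areg and then Hbegf in the 3 old groups. These leading ligands were close neighbours, with Hbegf above Areg in 28 of 52 libraries: in 5 of 7 young isotype, 10 of 10 young anti-PD-L1 and 6 of 12 young anti-CTLA4 libraries, while Areg was above Hbegf in 5 of 7 old isotype, 6 of 8 old anti-PD-L1 and 5 of 8 old anti-CTLA4 libraries. Their ranges overlapped in all 6 groups. The places of Egfr, Erbb3 and Btc changed from group to group, and neighbours among them did not differ beyond their spread: Egfr was above Erbb3 in 33 of 52 libraries and above Btc in 31, and Btc was above Erbb3 in 27.

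The 8 genes lie on 5 chromosomes (mouse build GRCm38, GENCODE annotation). Egfr spans chr11:16752203-16918158 and Erbb2 spans chr11:98412470-98437716, both on the plus strand. Erbb3 spans chr10:128567523-128589652 on the minus strand, Tgfa spans chr6:86195223-86275719 on the plus strand, and Hbegf lies on a chromosome of its own. The other ligands form 1 cluster of 376 kb on chromosome 5, in the order Epgn, Ereg (chr5:91074622-91093646), Areg (chr5:91139599-91148432) and Btc (chr5:91357261-91402994), with Btc alone on the minus strand. An antisense gene, Egfros, overlaps 15272 bases of Egfr, and an opposite-strand model overlaps 2360 bases of Tgfa. Since the sources used here do not give whether quantification used strand, reads of Egfr and Egfros may not be separated.

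Within that cluster the levels stood far apart. In all 52 libraries Areg was above both Ereg and Btc, and Btc was above Ereg, although Ereg and Areg are 46.0 kb apart. The 250 bases before the RefSeq start (GRCm38.p6) are shown for Areg, the abundant ligand of the cluster, for Btc, its neighbour, whose CPM ranged 18.1-fold over the tumours, and for Egfr, the receptor that brought these genes into view. Capitals mark matches, on either strand, to the letters TATAAA (the TATA box), TGACGTCA (a cyclic AMP response element), TGANTCA (an AP-1 site) or GGGCGG (the GC box).
Areg, chr5:91139349-91139598, plus strand: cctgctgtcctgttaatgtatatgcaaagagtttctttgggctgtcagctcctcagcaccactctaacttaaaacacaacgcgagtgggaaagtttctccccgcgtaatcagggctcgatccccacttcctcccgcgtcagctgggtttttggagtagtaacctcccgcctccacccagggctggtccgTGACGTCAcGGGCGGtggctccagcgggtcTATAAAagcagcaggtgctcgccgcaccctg
Btc, chr5:91402995-91403244, minus strand: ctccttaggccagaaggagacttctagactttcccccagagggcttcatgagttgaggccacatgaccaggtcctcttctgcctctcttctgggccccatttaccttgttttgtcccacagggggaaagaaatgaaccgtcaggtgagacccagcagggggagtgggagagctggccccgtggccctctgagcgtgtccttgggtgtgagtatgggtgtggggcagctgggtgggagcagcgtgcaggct
Egfr, chr11:16751953-16752202, plus strand: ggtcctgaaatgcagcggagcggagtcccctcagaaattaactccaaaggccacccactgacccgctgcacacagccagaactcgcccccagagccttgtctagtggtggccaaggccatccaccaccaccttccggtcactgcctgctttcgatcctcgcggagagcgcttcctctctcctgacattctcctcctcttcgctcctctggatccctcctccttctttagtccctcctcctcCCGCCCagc

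Areg held the letters of the cyclic AMP response element, the GC box and the TATA box, whose first bases lay 61, 52 and 31 bases before the start. Egfr held 1 GC box, on the reverse strand and 9 bases before the start, and Btc held none of the letters searched. Of 32851 mouse promoters of the same length, 12.4% held a TATA box, 1.55% a cyclic AMP response element, 6.75% an AP-1 site and 32.7% a GC box in these letters. The windows of Areg, Btc and Egfr were 57.2%, 59.6% and 60.8% G or C, against a median of 52.4% over all promoters, and held 15, 4 and 11 CpG dinucleotides against a median of 6. A promoter window was given for 5 of the 8 genes, and a match is a description of letters, not of a bound site.

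Egfr, the receptor of all 5 ligands, was higher in young tumours after anti-PD-L1 than after isotype. Its CPM ran from 3.23 to 7.58 (median 4.65) in the 7 young isotype libraries, from 4.46 to 25.1 (median 11.2) in the 10 young anti-PD-L1 libraries and from 3.92 to 17.8 (median 9.73) in the 12 young anti-CTLA4 libraries. In old tumours it ran from 2.43 to 8.40 (median 3.98) after isotype, from 3.56 to 9.61 (median 5.51) after anti-PD-L1 and from 4.65 to 11.6 (median 7.89) after anti-CTLA4. All 6 ranges overlapped, and the spread was widest in young anti-PD-L1 tumours, where 5 libraries lay between 12.2 and 25.1 CPM and 3 lay between 4.46 and 5.34 CPM. These values rest on 31 to 1023 counts a library (median 139).

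In the fit of group and batch over all 52 libraries, the fold change of Egfr in young anti-PD-L1 against young isotype tumours was 1.25 ± 0.31 on the log2 scale (± SE), and 9 of 10 treated libraries were above the isotype median. In that comparison 1.59% of 17899 genes were called at an adjusted p under 0.05. No test of the members is given in it, since this contrast was in view when the genes were chosen. The other 7 members had fold changes of -0.22 to 0.40 in it, none beyond 2 SE. The fold change of Egfr was 1.37 ± 0.33 within batch 2, where 9 anti-PD-L1 libraries (4.46 to 25.1 CPM, median 12.2) met 7 isotype libraries, and 1.10 ± 0.35 with the 4 libraries of low TMM factor left out. It was 0.67 ± 0.26 with each library's length trend as a covariate. That trend is the slope over genes of log2 CPM, less each gene's mean over libraries, on log2 relative length (counts over TPM).

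Markers of other cells moved with Egfr in the same comparison. All 12 fibroblast markers had positive fold changes in young anti-PD-L1 against isotype tumours (median 0.89, against 0.02 over all genes), of which 1 was called. Their summed level was 119 to 788 TPM (median 449) in young isotype and 372 to 3295 TPM (median 729) in young anti-PD-L1 libraries, with none of the 12 at 0 in all libraries of either group. The 8 basal and myoepithelial markers had a median fold change of 0.55 (7 of 8 positive), the 8 endothelial markers one of 0.51 (7 of 8), the 10 adipocyte markers one of 0.48 (10 of 10) and the 10 carcinoma epithelium markers one of 0.06, none of them called. The summed level of the basal list was 18.0 to 69.4 TPM in young isotype and 29.5 to 199 TPM in young anti-PD-L1 libraries. The length trend had a median of -0.16 in young isotype and 0.02 in young anti-PD-L1 libraries, and the mean log2 CPM of 10 ribosomal protein genes had medians of 10.6 and 9.96. The part of each in the level of Egfr was not tested.

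**Figure D2:**
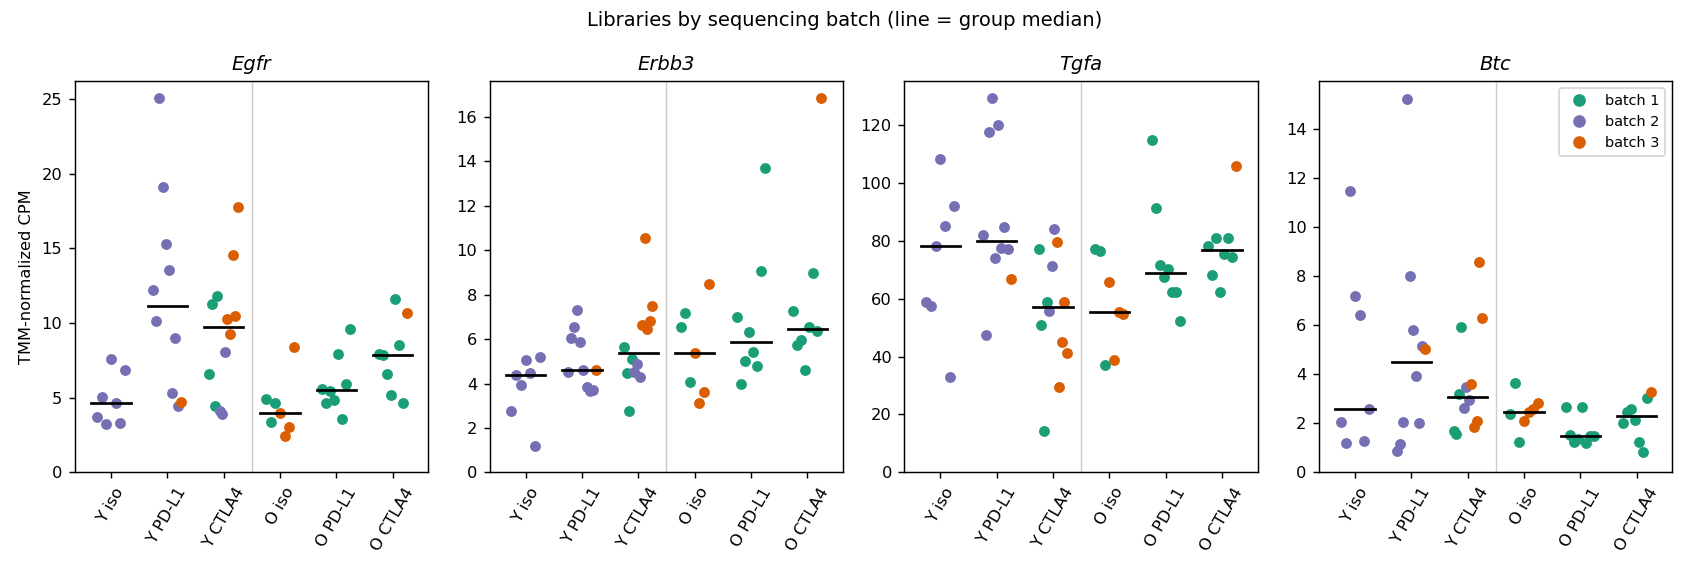
TMM-normalized CPM of Egfr, Erbb3, Tgfa and Btc in each library by group, coloured by sequencing batch (lines are group medians, linear axes from 0). Egfr reaches 25.1 CPM in young anti-PD-L1 and 7.58 CPM in young isotype tumours, and Btc spreads from 0.893 to 15.2 CPM in young anti-PD-L1 tumours.

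No member passed in young tumours after anti-CTLA4 against isotype, a comparison that called 0.0726% of genes and shares its isotype libraries with the one above. Egfr had a fold change of 0.54 ± 0.44 (adjusted p = 0.902, edgeR quasi-likelihood test with Benjamini-Hochberg adjustment over 17899 genes, as below). Its level in young anti-CTLA4 tumours went with batch: the 5 libraries of batch 3 lay at 9.23 to 17.8 CPM, the 4 of batch 1 at 4.47 to 11.8 and the 3 of batch 2, the batch of the isotype libraries, at 3.92 to 8.06. The libraries of batch 3 were all above those of batch 2. No member had an unadjusted p under 0.05, and the 8 fold changes ran from -0.50 to 0.54.

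In old tumours no member passed against isotype, and neither comparison called any gene (0% of 17899), although 5379 genes after anti-PD-L1 and 5321 after anti-CTLA4 had an unadjusted p under 0.05. DESeq2 called 2300 and 2033 genes in them, and no member among those; it gave no adjusted p for 1 and 4 of the members. These comparisons share the old isotype libraries. Among the members Erbb3 had the smallest p-value after anti-PD-L1, and Egfr after anti-CTLA4. The latter had a fold change of 0.95 ± 0.34 (edgeR adjusted p = 0.0956), with 8 of 8 treated libraries above the isotype median of 3.98 CPM. That value was 0.28 ± 0.29 (edgeR adjusted p = 1.00) with the length trend as a covariate. The members' standard errors ran from 0.21 to 0.49, and a p above the threshold does not show that levels were alike.

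Erbb3, the neuregulin receptor, ran from 3.12 to 8.48 CPM (median 5.38) in old isotype, from 4.00 to 13.7 (median 5.87) in old anti-PD-L1 and from 4.60 to 16.8 (median 6.46) in old anti-CTLA4 libraries. In young tumours it ran from 1.17 to 5.18 CPM (median 4.39) after isotype, from 3.65 to 7.29 (median 4.61) after anti-PD-L1 and from 2.75 to 10.5 (median 5.38) after anti-CTLA4. The ranges of all groups overlapped, and 1 library each of old anti-PD-L1 and old anti-CTLA4 stood well above the rest. Against old isotype the fold change was 0.59 ± 0.28 after anti-PD-L1 (edgeR adjusted p = 0.150) and 0.64 ± 0.27 after anti-CTLA4 (edgeR adjusted p = 0.112), neither of which passed. Within batch 1 alone they were 0.23 ± 0.37 and 0.13 ± 0.23, and with the length trend as a covariate 0.14 ± 0.25 and 0.18 ± 0.24. In the old isotype, anti-PD-L1 and anti-CTLA4 groups the length trend had medians of -0.05, 0.13 and 0.11; its part in these values was not tested.

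Erbb2, the receptor without a ligand, had group medians of 24.5 to 35.8 CPM, and its fold changes against isotype were 0.29 ± 0.22 and 0.41 ± 0.25 after anti-PD-L1 in young and old mice and 0.03 ± 0.29 and 0.39 ± 0.24 after anti-CTLA4. It passed in none of the 11 comparisons. Hbegf and Areg, the most abundant ligands, had fold changes of -0.07 to 0.23 and of -0.30 to -0.02 against isotype. Hbegf had group medians of 67.5 to 87.7 CPM and Areg of 29.7 to 40.8 CPM, and neither passed in any comparison. Ereg, the rarest ligand among the members, had group medians of 0.570 to 1.19 CPM on 1 to 154 counts a library. It passed in no comparison.

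**Figure D3:**
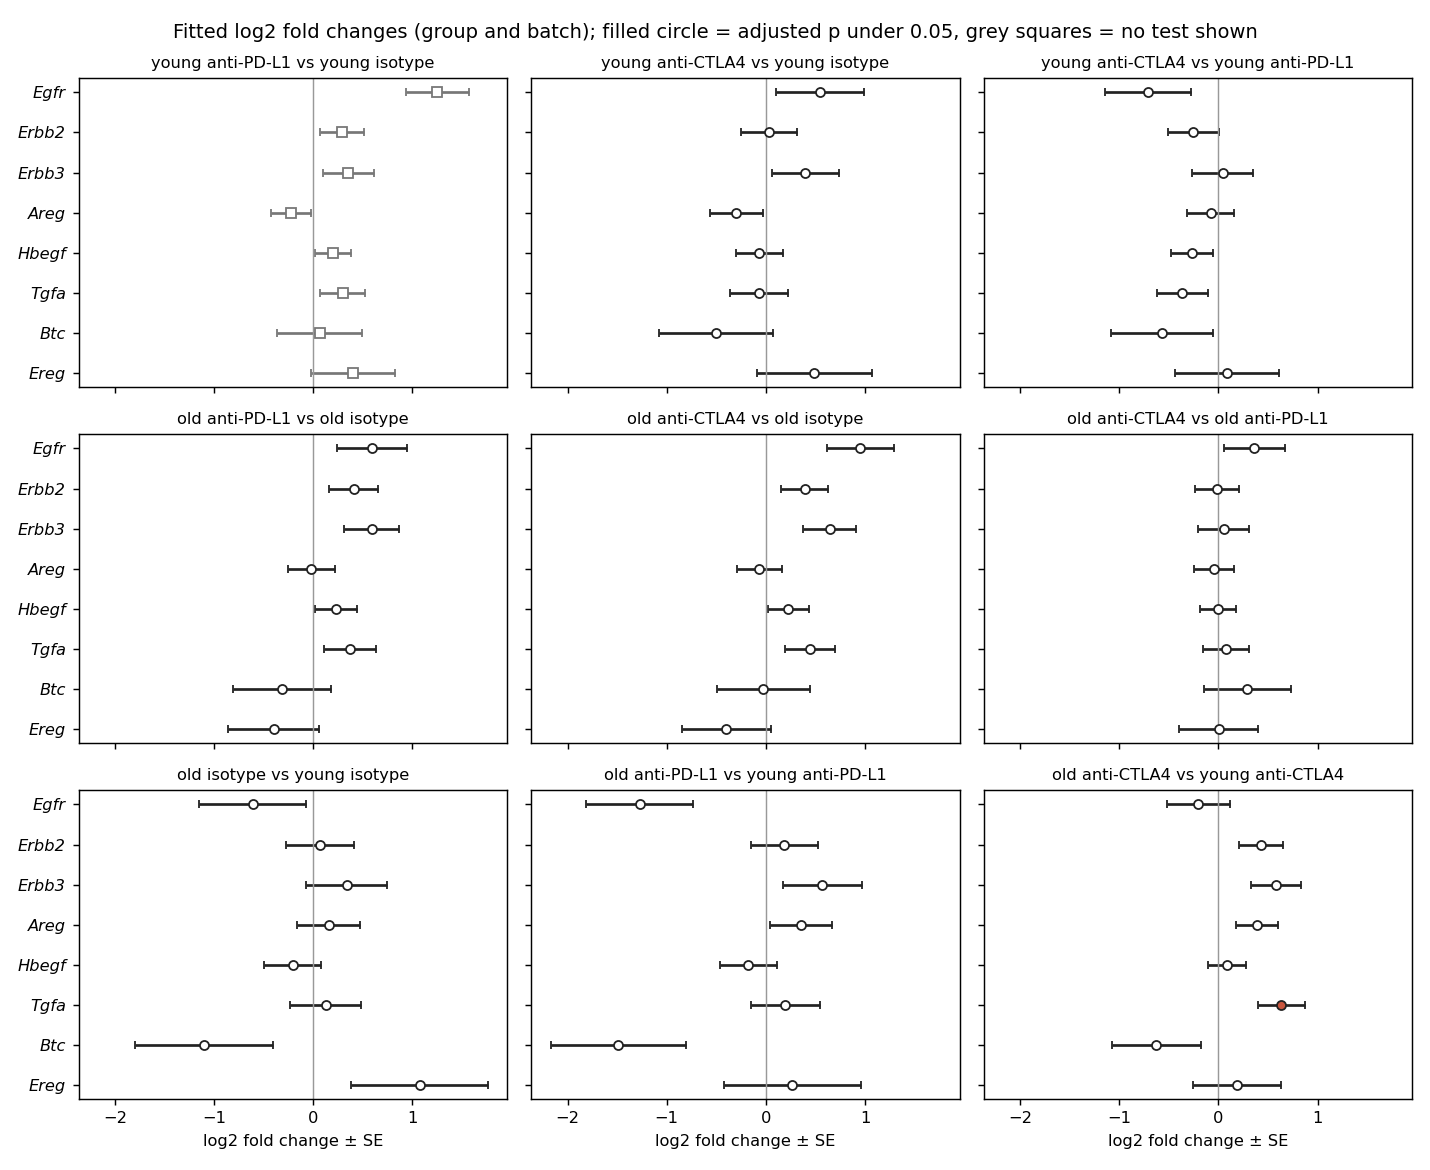
Fitted log2 fold changes ± SE of the 8 genes in the 9 pairwise comparisons. Only Tgfa in old against young anti-CTLA4 tumours (0.64 ± 0.23) has a filled circle, for an adjusted p under 0.05; the grey squares show young anti-PD-L1 against isotype, with no test.

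Age was compared within each antibody. Old isotype against young isotype tumours called 8.41% of genes and none of the 8 members, whose fold changes ran from -1.10 (Btc) to 1.07 (Ereg). Old against young anti-PD-L1 tumours called 5.04% of genes and again no member. In the latter Egfr was lower in old tumours by a fold change of -1.27 ± 0.54 (edgeR adjusted p = 0.162), with 0 of 8 old libraries above the young median of 11.2 CPM. That value uses the young anti-PD-L1 libraries in which Egfr was already known to be high, and is not independent of the choice.

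Btc, a ligand of EGFR and ERBB4, varied widely between young tumours. Its CPM ran from 1.20 to 11.5 (median 2.59) in young isotype, from 0.893 to 15.2 (median 4.49) in young anti-PD-L1 and from 1.55 to 8.59 (median 3.08) in young anti-CTLA4 libraries. In old tumours it ran from 1.24 to 3.64 (median 2.46) after isotype, from 1.20 to 2.68 (median 1.499) after anti-PD-L1 and from 0.840 to 3.26 (median 2.29) after anti-CTLA4. The ranges overlapped, and no old library exceeded 3.64 CPM whereas 12 of 29 young libraries did. In young anti-PD-L1 tumours the highest library was 17.1 times the lowest, against 2.23 times in old anti-PD-L1 tumours. The difference in spread was not tested.

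In old against young anti-PD-L1 tumours Btc had a fold change of -1.49 ± 0.68 (edgeR adjusted p = 0.199), with 0 of 8 old libraries above the young median. Egfr and Btc both passed without the batch term (-1.001 ± 0.30 and -1.52 ± 0.42, edgeR adjusted p = 0.0188 and 0.0120), a fit in which batch and age cannot be told apart because these groups share no batch. Btc rests on 12 to 363 counts a library (median 48.5).

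Tgfa, a high-affinity EGFR ligand, was the only member that passed a test here: it was higher in old than in young anti-CTLA4 tumours. Its CPM ran from 14.2 to 84.0 (median 57.3) in the 12 young anti-CTLA4 libraries and from 62.3 to 106 (median 76.9) in the 8 old ones. After isotype it ran from 32.8 to 108 CPM (median 78.3) in young and from 37.1 to 77.1 (median 55.3) in old tumours, and after anti-PD-L1 from 47.5 to 129 (median 79.8) in young and from 52.5 to 115 (median 68.8) in old tumours. The young and old anti-CTLA4 ranges overlapped, and 8 of 8 old libraries were above the young median.

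The fold change of Tgfa was 0.64 ± 0.23 (edgeR adjusted p = 0.0339), in a comparison that called 30.6% of all genes, 14.8% of them higher in old tumours. A count of 1 member of 8 is below that share. Leaving out the 4 libraries with a low TMM factor, which include the lowest Tgfa library of the young anti-CTLA4 group (replicate 8, 14.2 CPM), it was 0.50 ± 0.20 (edgeR adjusted p = 0.0563), within batch 1 0.59 ± 0.31 (adjusted p = 0.189, edgeR), and with the length trend 0.21 ± 0.18 (adjusted p = 0.378, edgeR). The old-minus-young difference of the anti-CTLA4 effect on Tgfa was 0.51 ± 0.38 (edgeR adjusted p = 0.658). The age difference under anti-CTLA4 was thus not shown to differ from that under isotype (0.12 ± 0.36). Old and young isotype libraries shared no batch, so the isotype value relies on batch terms that other groups supply. The isotype medians went the other way (55.3 CPM in old, 78.3 in young), with 0 of 7 old libraries above the young median. The length trend had a median of 0.00 in young and 0.11 in old anti-CTLA4 libraries, and 6 of 10 carcinoma epithelium markers were called higher in old tumours (median fold change 0.80, against -0.06 over all genes). Their summed level was 332 to 2018 TPM (median 1161) in young and 1566 to 2540 TPM (median 2235) in old anti-CTLA4 libraries, with no marker at 0 throughout. Leukocyte markers were lower in the same comparison, with 8 of 8 neutrophil and 7 of 8 T cell markers called. The part of either in the result was not tested.

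In the same comparison Erbb3 had a fold change of 0.58 ± 0.25 (edgeR adjusted p = 0.0754), with 7 of 8 old libraries above the young median of 5.38 CPM, and did not pass. With the length trend as a covariate it was 0.13 ± 0.23 (edgeR adjusted p = 0.707), while it was 0.71 ± 0.18 and passed (edgeR adjusted p = 0.00548) with only the compared groups. Egfr had one of -0.20 ± 0.32 (edgeR adjusted p = 0.656), and with the length trend as a covariate -0.79 ± 0.27 (edgeR adjusted p = 0.0199). No member passed between the antibodies at either age (0% of genes called in each, with 1242 genes in young and 243 in old tumours at an unadjusted p under 0.05, and 38 and 41 genes called by DESeq2). The age differences of the anti-PD-L1 and anti-CTLA4 effects also called 0% of genes (655 and 1257 at an unadjusted p under 0.05, and 63 and 45 by DESeq2). For Egfr the anti-PD-L1 effect was smaller in old than in young tumours by a log2 difference of -0.66 ± 0.46 (edgeR adjusted p = 1.00). The effect was thus not shown to differ with age. That difference uses the young anti-PD-L1 and isotype libraries in which Egfr was already known to differ, and is not independent of the choice.

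The genes around the receptors were followed in 5 lists of 71 genes (69 tested): the remaining receptors and ligands, the proteases and trafficking factors that release ligands, inhibitors and turnover factors of the receptors, the relay to ERK and PI3K, and transcripts that ERK induces. In young anti-PD-L1 against isotype tumours, the contrast known in advance, 1 of 69 was called, Adam12, a metalloprotease that can shed HB-EGF, with a fold change of 1.58 ± 0.41. After anti-CTLA4 in young tumours, and after either antibody in old tumours, 0 of 69 passed in edgeR, with 2, 26 and 23 at an unadjusted p under 0.05 (old anti-PD-L1 before old anti-CTLA4). Over all genes 6.97%, 30.1% and 29.7% were under that limit. DESeq2 called 0 of the 69 after anti-CTLA4 in young tumours. In old tumours it called 8 higher and 1 lower after anti-PD-L1 and 7 higher and 1 lower after anti-CTLA4. Over all genes it called 68, 2300 and 2033 in these comparisons. Shares of the genes given an adjusted p by DESeq2 are not set beside these counts, so nothing about the lists is read from them. The smallest p-value of the 69 was that of the adaptor Grb2 after anti-CTLA4 in young tumours (0.41 ± 0.15, edgeR adjusted p = 0.493). In old tumours it was that of the phospholipase Plcg1 after anti-PD-L1 (0.71 ± 0.23, edgeR adjusted p = 0.0878) and of the PI3K subunit Pik3r1 after anti-CTLA4 (0.77 ± 0.25, edgeR adjusted p = 0.0956). The 20 transcripts that ERK induces had a median fold change of 0.35 in old anti-PD-L1 and of 0.32 in old anti-CTLA4 tumours against isotype. Over all genes the medians were 0.05 and 0.02. Values were positive in 20 and 19 of 20, against 53.6% and 51.8% of all genes, and none was called by edgeR. The shift was not particular to this list. In the same order the ligand-release list had medians of 0.37 and 0.35, with 10 of 10 positive in each. The list of receptor inhibitors and turnover factors had 0.38 and 0.37 (11 and 12 of 13 positive). The relay list had 0.14 and 0.11, and the remaining receptors and ligands -0.18 and 0.05. In young tumours the median of the ERK-induced transcripts was -0.12 after anti-CTLA4, with 15 of 20 negative, beside -0.04 over all genes. After anti-PD-L1 it was 0.13, with 16 of 20 positive, beside 0.02 over all genes.

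Between ages some of these genes passed, at or below the rate of all genes in 2 of the 3 comparisons. In old against young anti-CTLA4 tumours 21 of 69 passed (30.4%, against 30.6% of all genes), 13 higher and 8 lower. Over all genes 2644 of the 5485 called were higher. The proteases Adam15 (-0.93 ± 0.17) and Adam8 (-1.28 ± 0.29) and the iRhom Rhbdf2, which carries ADAM17 to the cell surface (-0.63 ± 0.19), fell, with edgeR adjusted p-values of 9.58e-05 to 0.00997. The ERBB3 ligand Nrg1 was also lower in old tumours (-0.91 ± 0.28, edgeR adjusted p = 0.0106). Leukocyte markers were lower in the same comparison: 8 of 8 neutrophil markers (median fold change -1.56), 7 of 8 granulocyte precursor markers (-2.51), 7 of 8 T cell markers (-1.81) and 6 of 7 mast cell and basophil markers (-1.54) were called lower. The summed neutrophil level was 368 to 4715 TPM (median 1689) in young and 162 to 632 TPM (median 430.2) in old anti-CTLA4 libraries, and that of T cells 69.9 to 944 TPM (median 225) and 33.6 to 269 TPM (median 102), with no marker of these lists at 0 throughout. The part of these cells in the levels of the proteases and of Nrg1 was not tested.

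The inhibitors, relay genes and ERK-induced transcripts named by the same rule were on both sides. Spred1, an inhibitor of RAS signalling (0.87 ± 0.15), the immediate early gene Egr1 (0.66 ± 0.25), the receptor inhibitor Lrig1 (0.54 ± 0.19), its relative Lrig2 (0.54 ± 0.13) and Socs4 (0.36 ± 0.13) rose. Dusp5, a nuclear ERK phosphatase (-0.64 ± 0.14), and Akt2 (-0.30 ± 0.08) fell. The edgeR adjusted p-values of these 7 genes ran from 5.26e-05 to 0.0409. With the length trend as a covariate the split was 5 higher and 14 lower. The split over all genes in that fit is not set beside it, so no direction is read for the lists together.

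In old against young isotype tumours 3 of 69 passed (4.35%, against 8.41% of all genes), among which Dusp5 (-0.86 ± 0.22) and Adam15 (-1.002 ± 0.27) fell (edgeR adjusted p of 0.0113 and 0.0162). In old against young anti-PD-L1 tumours 4 of 69 passed (5.80%, against 5.04%), among which Spred1 (0.73 ± 0.23) rose, and Dusp5 (-0.78 ± 0.22) and Adam8 (-1.74 ± 0.47) fell (edgeR adjusted p of 0.0237 to 0.0456). These counts were 9 of 69 (3 higher, 6 lower) and 3 of 69 (1 higher, 2 lower) with low TMM factors left out. Without the batch term they were 13 of 69 and 6 of 69. The share over all genes also changes with the setting and is not set beside them, so nothing is read from these changes. Between antibodies at 1 age and in the age differences of the antibody effects 0 of 69 passed in edgeR, with 0 to 6 at an unadjusted p under 0.05, and DESeq2 called none.

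The members also varied between tumours of 1 group, and these variations were not shared by the whole family. Spearman's rho was taken over the 52 libraries after group and batch means were removed, as a description, with no p, since the points share libraries, depth and make-up. The closest pair was Erbb2 and Tgfa (rho 0.76, and 0.82, 0.70 and 0.66 within batches 1, 2 and 3). Egfr and Erbb3 followed (0.63, and 0.48, 0.70 and 0.59 within batches), then Hbegf and Tgfa (0.60) and Erbb2 and Hbegf (0.57). Areg went with Hbegf (0.50) and against Erbb3 (-0.45, and -0.37, -0.35 and -0.80 within batches). Within the cluster on chromosome 5 the values were low: Areg with Ereg 0.29, Areg with Btc 0.10 and Ereg with Btc 0.01.

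**Figure D4:**
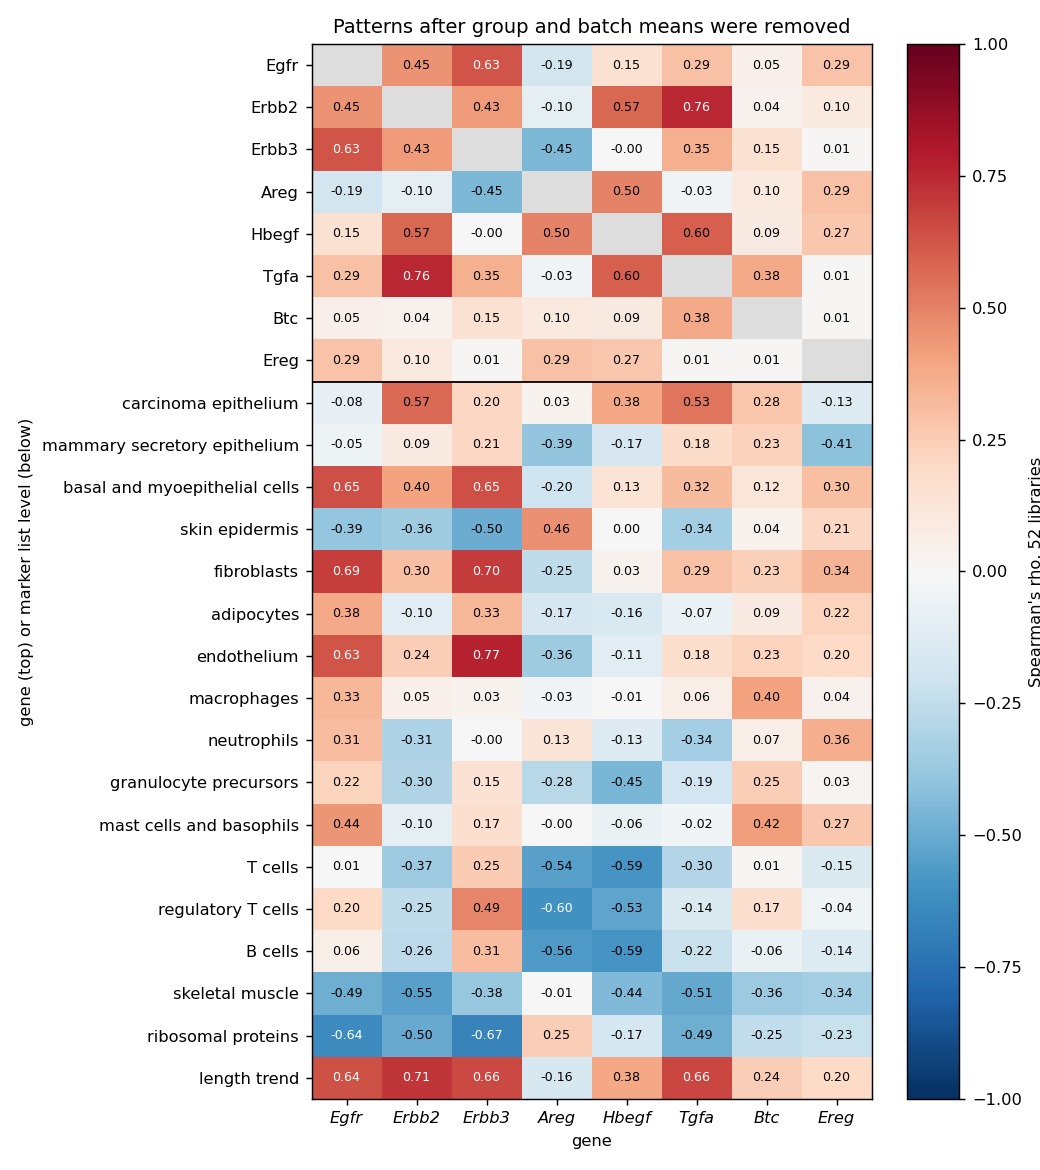
Spearman's rho over 52 libraries, after group and batch means were removed, of each gene (columns) with the other 7 genes (top rows) and with the mean log2 CPM of 16 marker lists or the length trend (lower rows), on a colour scale from -1 to 1. Among the lists Egfr and Erbb3 have their 3 highest values with fibroblasts (0.69 and 0.70), basal and myoepithelial cells (0.65 and 0.65) and endothelium (0.63 and 0.77), and Erbb2 and Tgfa with carcinoma epithelium (0.57 and 0.53).

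The receptors Egfr and Erbb3 went with markers of fibroblasts, of endothelium (0.63 and 0.77), and of basal and myoepithelial cells, a list that includes the smooth muscle actin gene Acta2 (0.65 and 0.65). With the mean of the fibroblast markers Egfr had a rho of 0.69 (0.65, 0.65 and 0.56 within batches) and Erbb3 one of 0.70 (0.74, 0.63 and 0.56), and with the other markers named the values within batches were 0.36 to 0.95. With carcinoma epithelium markers Egfr had -0.08 (-0.10, -0.09 and -0.03 within batches) and Erbb3 0.20, which ran from 0.61 in batch 1 to -0.04 and -0.46 in batches 2 and 3. Erbb2 and Tgfa had 0.57 (0.44, 0.50 and 0.68) and 0.53 (0.40, 0.55 and 0.48) with carcinoma epithelium. Areg and Hbegf went against lymphocyte markers, with -0.54 and -0.59 for T cells, -0.60 and -0.53 for regulatory T cells, and -0.56 and -0.59 for B cells. Within batches these values ran from -0.70 to -0.31 for Areg and from -0.79 to -0.12 for Hbegf. For Hbegf each list had its lowest value in batch 1. Egfr, Erbb2, Erbb3 and Tgfa also went with the length trend (0.64, 0.71, 0.66 and 0.66), which for Erbb2 and Tgfa was 0.25 and 0.08 in batch 3 alone. In the same order they had -0.64, -0.50, -0.67 and -0.49 with ribosomal protein genes, and 0.59, 0.48, 0.73 and 0.45 with the TMM factor. Which cells hold each transcript was not measured.

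For each member the 3 genes of highest rho were found among 13164 genes (13165 for Ereg) with a mean of at least 1 CPM. For Egfr they were the receptor phosphatase gene Ptprj (0.82), Tgfbr3, a co-receptor of TGF-beta (0.80), and Tbc1d2b (0.80). For Erbb2 they were Ddr1, a collagen receptor kinase (0.96), Selenon (0.93) and Itga3, an integrin subunit (0.92), and for Erbb3 they were the transporter Abcc4 (0.88), the metalloprotease Mmp15 (0.86) and Itpkb (0.86).

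Among the ligands, Tgfa had Itgb4, an integrin subunit of hemidesmosomes (0.89), B3gnt3 (0.88) and the ephrin receptor Epha2 (0.87). Hbegf had the chromatin protein gene Hmga2 (0.86), Kctd11 (0.82) and the growth factor Pdgfa (0.79), and Areg had the protease Ctsl (0.79), Tnfsf9, which encodes 4-1BB ligand (0.78), and the urokinase receptor Plaur (0.74). Ereg had the chemokine Cxcl5 (0.69), the activin antagonist Fst (0.69) and Armh4 (0.67).

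Btc had the cytokine Il24 (0.91), Prl2c3 (0.84) and Plekhf1 (0.81). Il24 ran from 9.52 to 314 CPM (median 47.7) in young anti-PD-L1 and from 2.58 to 28.2 CPM (median 3.65) in old anti-PD-L1 libraries. The ranges overlapped, and the young libraries reached higher, as with Btc. The median rho of a member with all genes lay between -0.02 and 0.10.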

How the data were processed

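RNA of 52 tumours was sequenced after poly(A) selection with a kit that marks strand, per the labels' protocols. Salmon, DESeq2 1.16.1 and the build mm10 are named per the submitters' processing notes; the Salmon version, the annotation, the summing to genes and the use of strand are not given in the sources used here. The authors deposited estimated counts per gene, all whole numbers, and TPM values. Counts were proportional to TPM times 1 length per gene (largest log2 deviation 0.00145 over 2644 genes), as length-scaled estimates are.

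Of 47729 identifiers 47224 were matched to a symbol. The deposited estimated counts were fitted with edgeR 4.0.16 (R 4.3.3; filterByExpr, 17899 genes kept; TMM; quasi-likelihood test; group and sequencing batch over all 52 libraries; 11 comparisons). Adjusted p-values are Benjamini-Hochberg over all genes kept, and a gene passed, or was called, under 0.05. A standard error is the fold change over the root of F. Between-gene levels are the authors' TPM; log2 CPM for rho used a prior count of 2. The fit was tested on simulated counts. No 2 libraries of a group were copies (smallest chi-square per degree of freedom 19.19 over 209 pairs).

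Members, lists and tests were chosen with earlier results of these data known. A member's fold change is given where its unadjusted p was under 0.05, and otherwise by range; of the lists, up to 3 passing genes of smallest p a list, and the smallest p of all; some genes of the lists are counted but not reported here by name. Values named outside this rule (Egfr and Erbb2 in every treatment, Tgfa and Egfr interactions, Btc, Ereg) were chosen after they were seen. Alternatives were DESeq2 1.42.0, other size factors, no filter, no batch term, the replicate number as a block, fewer libraries, 1 batch, only the groups compared, and, added after seeing the data, the length trend. Replicate numbers were checked as pairs and do not pair the tumours. Counting precision is set by the counts a library; replicate spread was larger.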

Additional observations from a re-analysis of the deposited data

Results flagged for a closer look

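Each member's CPM was searched for a library far from the others in the 5 groups of 7 to 10 libraries (40 searches, of which chance marks about 1 in 20), and 5 values stood apart. In the old anti-CTLA4 group, replicate 8, its only library from batch 3, was highest for Erbb3 (16.8 CPM, next 8.99) and for Tgfa (106 CPM, next 81.0). In old isotype tumours replicate 4 had 8.40 CPM of Egfr, against 4.88 in the next library. In young anti-PD-L1 tumours Btc reached 15.2 CPM in replicate 5, against 8.02 in the next, and Areg fell to 12.5 CPM in replicate 3, against 25.7 in the next lowest.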

How the results depend on the processing

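Over the alternatives run, 88 counts of members that passed were equal to the reported ones and 12 were not, and of 73 alternative fold changes of named members none changed sign. Of the 12 unequal counts, 5 were in young anti-PD-L1 against isotype tumours, the contrast known in advance, and nothing is read from them. Genes called in all there fell from 285 to 135 with the replicate block, to 18 with low TMM factors left out and to 24 with the length trend. They numbered 142 with only the compared groups and 138 in batch 2 alone. The fold change of Egfr there ran from 0.67 to 1.37. In old against young anti-PD-L1 tumours the count of members that passed went from 0 to 2 (Egfr and Btc) without the batch term (2192 genes called, against 903). It was also 2 with only the compared groups (2094), and 1 (Egfr) with the length trend (2953). In old against young anti-CTLA4 tumours it went from 1 (Tgfa) to 0 without the batch term, with low TMM factors left out and in batch 1 alone, and to 2 (Erbb3 and Tgfa) with only the compared groups; Tgfa ran from 0.21 to 0.80, and with the length trend Egfr passed in its place. Fewer samples entered the fits of 1 batch, of the compared groups and with low TMM factors left out. For old against young anti-PD-L1 tumours the fit of only the compared groups also held no batch term, since they share no batch. Batch and age cannot be told apart in it, as in the fit without the batch term. The causes of these changes were not tested. Of the 24 genes named as most like a member, 14 were among the first 3 by Pearson's r and 14 with low TMM factors left out. Of 48 ranks by median TPM, 44 were equal by mean TPM and 44 by CPM per length.

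Same-numbered replicates of different groups did not deviate together: over 113 pairs the correlation of deviations ran from -0.54 to 0.53 (median -0.02, 43 over 0.1). The replicate block kept 1 member in old against young anti-CTLA4 tumours and 0 in the 9 comparisons that had 0, while genes called went from 903 to 35 in old against young anti-PD-L1, from 1505 to 752 in old against young isotype and from 13 to 2 in young anti-CTLA4 against isotype tumours. Without the batch term the last called 1240 genes. DESeq2 called 894 genes in young anti-PD-L1 and 68 in young anti-CTLA4 against isotype, 1551 in old against young anti-PD-L1 and 6231 in old against young anti-CTLA4 tumours. No single-batch value could be had for old against young isotype, old against young anti-PD-L1 or the age differences of the antibody effects. Low counts limit Ereg (median 17 a library) and Btc (median 48.5).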
